A study of Mus musculus with 17 samples.

Results

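The levels of 6 kallikrein genes were followed through mouse lacrimal gland and its organoids: Klk1, Klk1b9, Klk1b11, Klk1b27, Klk8 and Klk10. They are 6 of the 26 genes of the kallikrein family listed for this work and of 57638 gene IDs in both count tables together. The genes were chosen by symbol, with their measured values in these libraries already known, and which values were used is not recorded. Their levels and differences are therefore given as a description with no test, and tests are given for the other 20 family genes and for genes that act with kallikreins.

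Kallikreins are secreted serine proteases that are made as inactive precursors and switched on when a short leading peptide is cut off. Klk1, tissue or glandular kallikrein, releases kinin peptides from kininogens, and the mouse carries many tandem copies of it, the Klk1b genes, best known as products of the salivary glands. Klk8 (neuropsin) and Klk10 belong to the other branch of the family, which is expressed in stratified epithelia such as the epidermis, where its members cut adhesion proteins and activate each other.

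Polyadenylated RNA was sequenced from the lacrimal gland, the source of the watery layer of tears, and from organoids, epithelial cultures embedded in basement membrane extract. One count table holds wildtype gland tissue, uncloned wildtype organoids in expansion medium (EM) and the same in differentiation medium (DM), with 3 libraries each, numbered as lines 6, 7 and 8. The other table holds 2 wildtype (WT) clones and 2 labelled Pax6-KO, with 1 library per clone in EM and 1 in DM, for 17 libraries in all. The growth protocol gives 7 days of EM, or 2 days of EM and then 5 of DM, while the series text gives 7 days for both media in the clones, which leaves the DM time of the clones unclear. No treatment beyond the media is named, and the sources used here do not give sex, age, strain or how the knockout was made. Each clone is 1 line, so a difference between clones of unlike label may belong to the clone.

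Total counts ran from 12801473 to 19207469 in the first table and from 18282059 to 22500534 in the second. Pax6 itself, the gene named in the knockout label, stood at 219 to 280 CPM, which are counts scaled to a common library size, in WT clones and at 135 to 309 CPM in clones labelled Pax6-KO, so its level gave no check of the labels. Levels are CPM with trimmed-mean (TMM) scaling within a table unless another scale is named, and the tables were scaled apart. The summed lacrimal acinar markers stood at 11553 to 12300 CPM in the gland and at 156 to 336 CPM in uncloned organoids. That organoid sum was mostly Pigr, at 151 to 163 CPM in EM and 190 to 313 CPM in DM. No other acinar marker there exceeded 24.2 CPM. Epithelial markers were detected in every group. In bulk RNA, fewer cells of a type and less RNA per cell cannot be told apart. No source says whether the lines came from separate animals, so the p-values below measure only the spread between these libraries.

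All 6 genes lie on the plus strand of chromosome 7 within the kallikrein locus (GRCm38), all protein coding. In order along the chromosome they are Klk10 (ENSMUSG00000030693, 43781035 to 43785410), Klk8 (ENSMUSG00000064023, 43797577 to 43803826), Klk1b9 (ENSMUSG00000059042, 43976061 to 43980376), Klk1b11 (ENSMUSG00000044485, 43995877 to 43999875), Klk1b27 (ENSMUSG00000063177, 44052290 to 44056712) and Klk1 (ENSMUSG00000063903, 44225360 to 44229618). Klk10 and Klk8 sit among the genes numbered Klk4 to Klk15 at the one end, and all 13 Klk1b genes lie between Klk15 and Klk1.

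The Klk1b genes are close copies, and the stretch of coding sequence around the codon of the catalytic serine is shown to let the likeness be seen. It was read from GENCODE transcripts, 75 bases 5′ to 3′, and capitals mark bases that differ from Klk1b11.
Klk1b11: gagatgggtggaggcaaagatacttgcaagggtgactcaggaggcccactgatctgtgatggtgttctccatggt
Klk1b27: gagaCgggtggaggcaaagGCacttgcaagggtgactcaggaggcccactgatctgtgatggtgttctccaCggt
Klk1b9: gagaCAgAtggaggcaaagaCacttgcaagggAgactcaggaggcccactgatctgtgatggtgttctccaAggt
Klk1: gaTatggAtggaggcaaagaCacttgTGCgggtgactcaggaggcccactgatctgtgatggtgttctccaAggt
Klk8: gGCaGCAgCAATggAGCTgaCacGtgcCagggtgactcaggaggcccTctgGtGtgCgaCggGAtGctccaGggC
Klk1b27 differed from Klk1b11 at 4 bases of this stretch, Klk1b9 at 6, Klk1 at 7 and Klk8 at 26. Over the whole coding sequence Klk1b11 and Klk1b27 were 89.1% identical, Klk1b9 and Klk1b11 87.0%, Klk1 and Klk1b9 86.0%, and Klk8 and Klk10 58.0%. Of all 50-base windows in the transcripts of a gene, those found in no other gene's transcripts made up 76.0% for Klk1, 82.8% for Klk1b9, 87.2% for Klk1b11 and 85.7% for Klk1b27, and 100% for Klk8 and for Klk10. How reads that match several copies were counted is not given in these sources, so the value of any single Klk1b copy is uncertain and their sum is given beside it.

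The 80 bases before the start site are shown to let the Klk1b copies be compared there too. They come from RefSeq (GRCm38.p6, plus strand), and capitals mark the letters TTTAAA, a string picked after these sequences were seen.
Klk1b9, chr7:43975981-43976060: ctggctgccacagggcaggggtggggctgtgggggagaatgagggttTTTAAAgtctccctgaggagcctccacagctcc
Klk1b11, chr7:43995797-43995876: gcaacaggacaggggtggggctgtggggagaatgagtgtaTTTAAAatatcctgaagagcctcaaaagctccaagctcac
Klk1b27, chr7:44052210-44052289: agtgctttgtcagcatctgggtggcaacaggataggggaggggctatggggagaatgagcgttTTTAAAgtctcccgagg
Klk1, chr7:44225280-44225359: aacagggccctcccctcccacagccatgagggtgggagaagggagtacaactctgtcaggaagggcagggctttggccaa
Klk8, chr7:43797497-43797576: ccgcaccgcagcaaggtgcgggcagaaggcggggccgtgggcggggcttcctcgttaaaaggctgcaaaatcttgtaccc
TTTAAA reads the same on both strands. It occurred in this window in 12 of the 13 Klk1b genes, all but Klk1b21, in 0 of the 13 other kallikreins, and in 3.55% of 32851 promoter windows of this length. Over 250 bases before the start, Klk1b9 and Klk1b11 were 78.4% identical, Klk1b11 and Klk1b27 71.4%, and Klk1 and Klk1b11 38.3%. The Klk1b genes are close copies, so their matches are not independent. Klk1b21, without the string, also had fewer counts in DM than in EM. It had 1 against 29 in WT clones and 0 against 11 in labelled KO clones. These are matches of letters, no binding was measured, and a part of the string in the medium differences was not tested.

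Klk1, the gene the copies derive their name from, had few counts in any library. It had 0, 1 and 2 counts in the gland, 1, 0 and 0 in uncloned EM and 0 in each uncloned DM library. WT clones had 26 and 2 counts in EM and 0 and 0 in DM, and clones labelled Pax6-KO had 6 and 0 in EM and 0 and 1 in DM. Only WT clone 1 in EM, at 1.16 CPM, exceeded 1 CPM. In WT clones Klk1 was at least 8.41-fold lower in DM than in EM, with 3 counts over the DM group as the floor, and the 2 groups did not overlap. Without WT clone 1 in EM, that difference rests on 2 counts. The pseudogene Gm10109 overlaps Klk1 on the opposite strand without sharing exon bases, and had at most 28 counts in any group.

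Klk1b11 was the Klk1b copy of the gland. It had 24, 21 and 31 counts in gland 6, 7 and 8, 21, 28 and 50 in uncloned EM and 0, 1 and 4 in uncloned DM. These are 4.02 ± 0.219 CPM (SD, n = 3), 1.32 ± 0.652 CPM and 0.0656 ± 0.0827 CPM, and the 3 groups did not overlap. Uncloned EM stood below the gland by 1.61 on the log2 scale (-1.61 ± 0.42, SE) and DM stood below EM (-4.11 ± 0.62, or -5.51 without DM of line 8). The first of these depended on scaling: with total-count scaling it turned to 0.45, and the gland and EM then overlapped.

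In the clones Klk1b11 was far more abundant in EM and again low in DM. WT clones 1 and 2 had 2210 and 815 counts in EM (98.6 and 38.2 CPM) and 16 and 11 in DM (0.732 and 0.626 CPM). Clones labelled Pax6-KO had 1666 and 352 counts in EM (84.1 and 18.4 CPM) and 17 and 9 in DM (0.872 and 0.478 CPM). Every EM library lay above every DM library, while WT and labelled KO overlapped within each medium. The medium difference was -6.63 ± 0.97 in WT clones and -6.23 ± 0.96 in labelled KO clones. It shrank to -5.79 without WT clone 1 in EM and to -4.75 without labelled KO clone 1 in EM, and grew to -6.95 without labelled KO clone 2 in EM. The difference between these medium effects, labelled KO minus WT, was 0.40 ± 1.39, and turned to -0.44 without WT clone 1 in EM and to -0.30 without labelled KO clone 2 in EM.

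Klk1b27 had no counts in any gland library and held the most Klk1b counts in uncloned organoids. Uncloned EM had 68, 48 and 78 counts in lines 6, 7 and 8 (2.60 ± 0.761 CPM), and uncloned DM had 7, 0 and 8 (0.225 ± 0.196 CPM). All 3 EM libraries lay above all gland and DM libraries, and gland and DM overlapped. EM was at least 16.2-fold higher than the gland, with 3 counts over the gland as the floor, and DM stood below EM (-3.55 ± 0.63, log2, SE, or -2.92 without DM of line 7).

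WT clones 1 and 2 had 1239 and 997 counts of Klk1b27 in EM (55.3 and 46.8 CPM) and 91 and 58 in DM (4.16 and 3.30 CPM). Clones labelled Pax6-KO had 1097 and 611 counts in EM (55.4 and 31.9 CPM) and 27 and 40 in DM (1.39 and 2.12 CPM). The media did not overlap under either label, and the differences were -3.77 ± 0.33 in WT and -4.63 ± 0.35 in labelled KO clones. In DM both labelled KO clones lay below both WT clones (-1.09 ± 0.35), and in EM they overlapped (-0.23 ± 0.29). The medium difference in labelled KO minus that in WT clones was -0.87 ± 0.45, and ran from -1.21 to -0.42 with each library left out. Within clones 1 and 2 DM was 13.3- and 14.2-fold lower than EM in WT. In labelled KO it was 40.0- and 15.0-fold lower, so the larger fall was mostly that of clone 1.

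Klk1b9, known as a binding protein of epidermal growth factor, had no counts in the gland and 3, 15 and 7 in uncloned EM (0.321 ± 0.214 CPM), and 1, 0 and 0 in uncloned DM. With the gland set to the floor of 3 counts, it was 2.08-fold higher in EM (lower 95% limit from counting error 1.57). Its pooled counts were 23.4-fold lower in DM than in EM, with a 95% interval from counting error alone of 3.83 to 961. WT clones had 281 and 172 counts in EM (12.5 and 8.07 CPM) and 1 and 0 in DM, a 408-fold difference with an interval of 72.9 to 16160. Clones labelled Pax6-KO had 163 and 36 in EM (8.23 and 1.88 CPM) and 0 and 3 in DM, a 65.2-fold difference with an interval of 22.0 to 319. Single libraries moved both. The fitted log2 difference in labelled KO clones, -5.90, became -4.48 without clone 1 in EM, -6.60 without clone 2 in EM and -4.94 without clone 1 in DM, and in WT clones it went from -8.36 to -7.63 without clone 2 in DM. Without the 1 DM library that had counts (WT clone 1 or labelled KO clone 2) it came to -10.67 and -9.68, values that are set by the fit since DM is then at 0. EM libraries lay above DM libraries in all 3 settings. The antisense gene Gm44756 spans Klk1b9, shares no exon bases with it and had 3 counts in WT EM and none elsewhere.

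The sum of Klk1b9, Klk1b11 and Klk1b27 does not depend on how reads were split among these 3 copies. This sum would still change if reads that match several copies were dropped or counted more than once, which is not known. In the gland it was 4.26, 3.83 and 3.99 CPM, against 3.82, 3.33 and 5.59 CPM in uncloned EM and 0.410, 0.0384 and 0.475 CPM in uncloned DM. Gland and EM overlapped, with a log2 ratio of 0.08, which became 2.14 with total-count scaling and -0.17 without EM of line 8. DM was 13.8-fold lower than EM, and 9.31-, 86.5- and 11.8-fold lower within lines 6, 7 and 8.

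In WT clones the sum stood at 166 and 93.0 CPM in EM and at 4.94 and 3.93 CPM in DM, which is 29.2-fold lower. In clones labelled Pax6-KO it stood at 148 and 52.1 CPM in EM and at 2.26 and 2.76 CPM in DM, which is 39.8-fold lower (log2 ratio -5.32, or -4.38 without labelled KO clone 1 in EM). Labelled KO and WT overlapped in EM and did not in DM, where labelled KO was 1.77-fold lower. The ratio of labelled KO to WT in EM turned from -0.38 to 0.10 (log2) without WT clone 1, to 0.19 without labelled KO clone 2, and to -1.32 without labelled KO clone 1. As a share of each library's own total counts, the sum was 5.501 to 9.20 CPM in uncloned EM and 52.7 to 169 CPM in the cloned EM libraries. These levels come from tables counted and scaled apart, and no test was made across them.

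**Figure D1:**
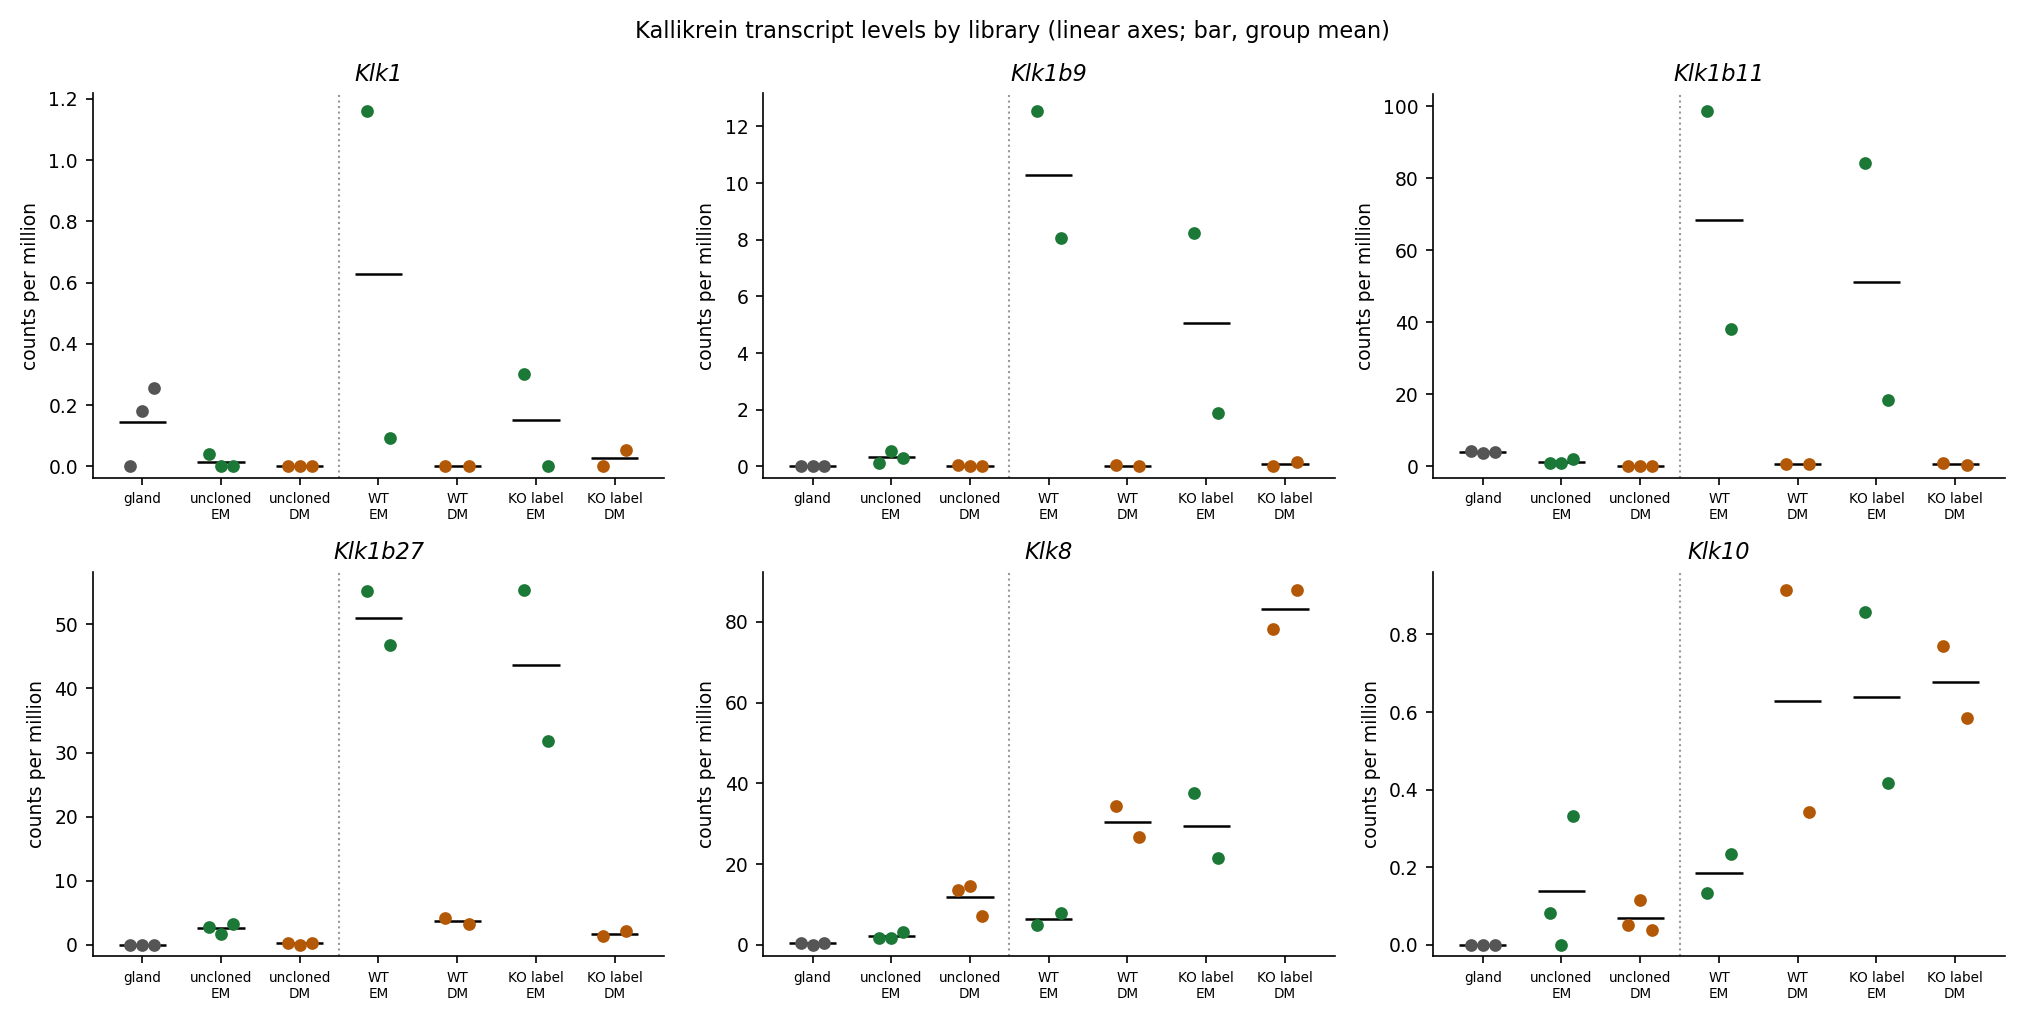
CPM of the 6 genes in each of the 17 libraries on linear axes with a scale for each gene, where a point is a library, a bar the group mean, and the dotted line parts the 2 tables, which were scaled apart. Among the clones the Klk1b genes peak in EM (Klk1b11 at 98.6 CPM in WT clone 1), and Klk8 is highest under the KO label in DM, at 78.4 and 88.0 CPM. In the first table Klk1b11 is highest in the gland, at a mean of 4.02 CPM against 1.32 CPM in uncloned EM.

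The make-up of the Klk1b counts differed between gland and organoids. Over all 13 Klk1b genes the gland had 80 counts, of which 76 were on Klk1b11 and none on Klk1b27. Uncloned EM had 370 counts, with 26.8% on Klk1b11 and 52.4% on Klk1b27. WT clones in EM had 6656 counts, with 45.4% on Klk1b11, 33.6% on Klk1b27 and 6.81% on Klk1b9, and labelled KO clones in EM had 4455, with 45.3%, 38.3% and 4.47%. In DM Klk1b27 held most of the few that were left, 81.9% of 182 in WT and 66.3% of 101 in labelled KO clones. The 3 copies together held between 85.8% and 97.3% of all Klk1b counts in every group.

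**Figure D2:**
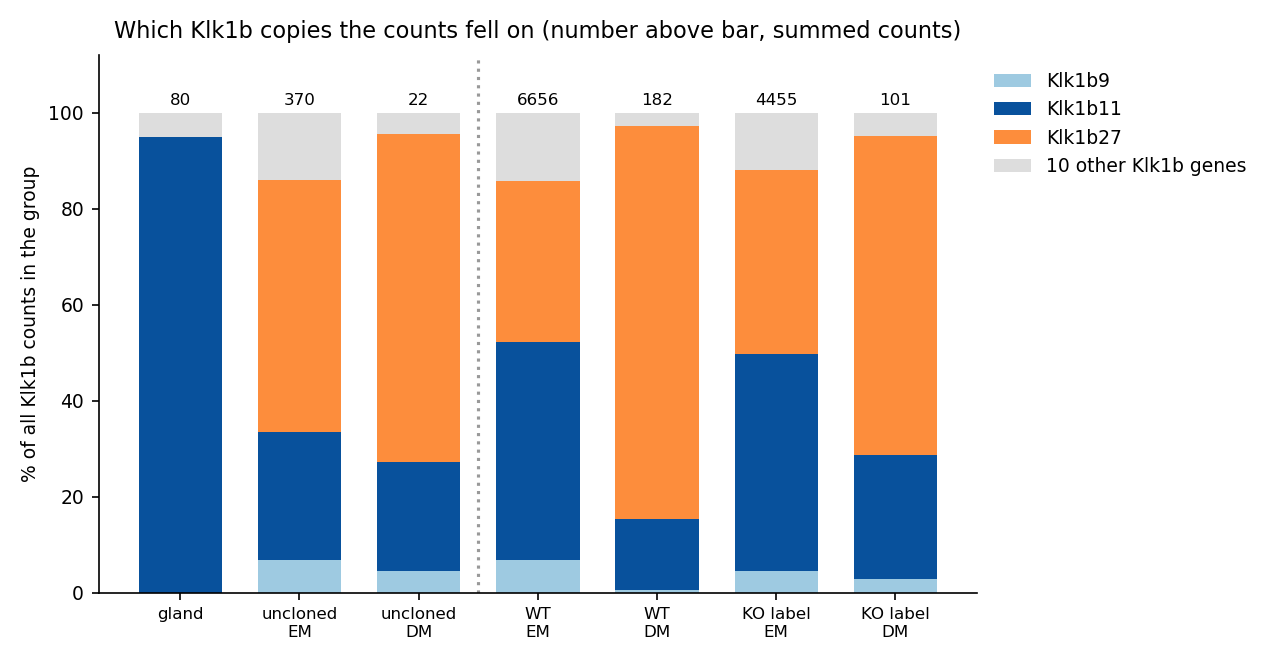
Share of all Klk1b counts of a group (percent, bars from 0) on each of 3 copies and on the 10 other Klk1b genes, with the summed counts above each bar. Klk1b11 holds 76 of the 80 counts in the gland, and Klk1b27 holds 81.9% in WT clones in DM.

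Klk8, neuropsin, ran the other way and was higher in DM than in EM in every line and clone. It had 3, 0 and 4 counts in gland 6, 7 and 8 (0.349 ± 0.302 CPM), 40, 45 and 76 in uncloned EM (2.15 ± 0.862 CPM) and 267, 381 and 181 in uncloned DM (11.8 ± 4.07 CPM). No 2 of these groups overlapped. EM stood above the gland by 2.52 ± 0.68 (log2, SE) and DM above EM by 2.46 ± 0.36. Within lines 6, 7 and 8 the DM level was 8.24-, 8.90- and 2.28-fold that of EM.

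In WT clones 1 and 2 Klk8 had 109 and 168 counts in EM (4.86 and 7.88 CPM) and 753 and 468 in DM (34.5 and 26.6 CPM). In clones labelled Pax6-KO it had 743 and 414 counts in EM (37.5 and 21.6 CPM) and 1527 and 1656 in DM (78.4 and 88.0 CPM). The highest group was thus labelled KO in DM, then WT in DM and labelled KO in EM, which overlapped each other, and then WT in EM. DM stood above EM by 2.26 ± 0.33 in WT and by 1.49 ± 0.31 in labelled KO clones. Labelled KO stood above WT by 2.22 ± 0.33 in EM and by 1.44 ± 0.31 in DM, without overlap in either medium. The medium difference was smaller in labelled KO than in WT clones by 0.77 ± 0.44 on the log2 scale. With each library left out, labelled KO minus WT ran from -1.16 to -0.32. Within clones 1 and 2 the DM level was 7.09- and 3.38-fold that of EM in WT. In labelled KO it was 2.09- and 4.07-fold, so the labels overlapped.

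Klk8 shares 382 exon bases with the antisense transcript 2310002F09Rik, which also spans Klk10. The kit marks strand but the sources do not give the strand setting of the counting, so reads from the shared bases cannot be told apart. The antisense transcript had no counts in the gland and means of 0.608 and 1.51 CPM in uncloned EM and DM, 1.94 and 5.28 CPM in WT EM and DM, and 4.07 and 8.38 CPM in labelled KO EM and DM. Its group means stood in the same order as those of Klk8 within each table. Its part in the Klk8 values was not tested.

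Klk10, an epithelial kallikrein, was scarce throughout. It had no counts in the gland, 2, 0 and 8 in uncloned EM and 1, 3 and 1 in uncloned DM, and EM and DM overlapped. WT clones had 3 and 5 counts in EM (0.134 and 0.234 CPM) and 20 and 6 in DM (0.915 and 0.342 CPM), without overlap (1.76 ± 0.73). Clones labelled Pax6-KO had 17 and 8 counts in EM and 15 and 11 in DM, which overlapped (0.08 ± 0.66). Labelled KO lay above WT in EM (1.77 ± 0.73) and overlapped it in DM (0.09 ± 0.66). The WT difference became 0.88 without WT clone 1 in DM, and the labelled KO difference 0.69 without labelled KO clone 1 in EM. Between labels the EM difference became 1.16 without labelled KO clone 1, and the DM difference 0.97 without WT clone 1. The medium difference in labelled KO minus that in WT clones was -1.68 ± 0.98, and -0.79 without WT clone 1 in DM.

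Scaled per length, as CPM per kilobase of exon, Klk1b11 led in the gland at 4.66 ± 0.254, against 0.227 ± 0.196 for Klk8. Klk8 led in uncloned DM at 7.68 ± 2.64, and Klk1b27 in uncloned EM at 2.93 ± 0.856, where the libraries overlapped those of Klk1b11 at 1.53 ± 0.756 and of Klk8 at 1.40 ± 0.560. In WT clones in EM, Klk1b11 at 79.3 ± 49.5 and Klk1b27 at 57.4 ± 6.78 (n = 2) exceeded Klk8 at 4.14 ± 1.38, and in DM Klk8 at 19.8 ± 3.59 exceeded Klk1b27 at 4.20 ± 0.685. In labelled KO clones in DM, Klk8 at 54.0 ± 4.41 stood above every other of the 6 genes, of which Klk1b27 at 1.97 ± 0.588 was next.

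**Figure D3:**
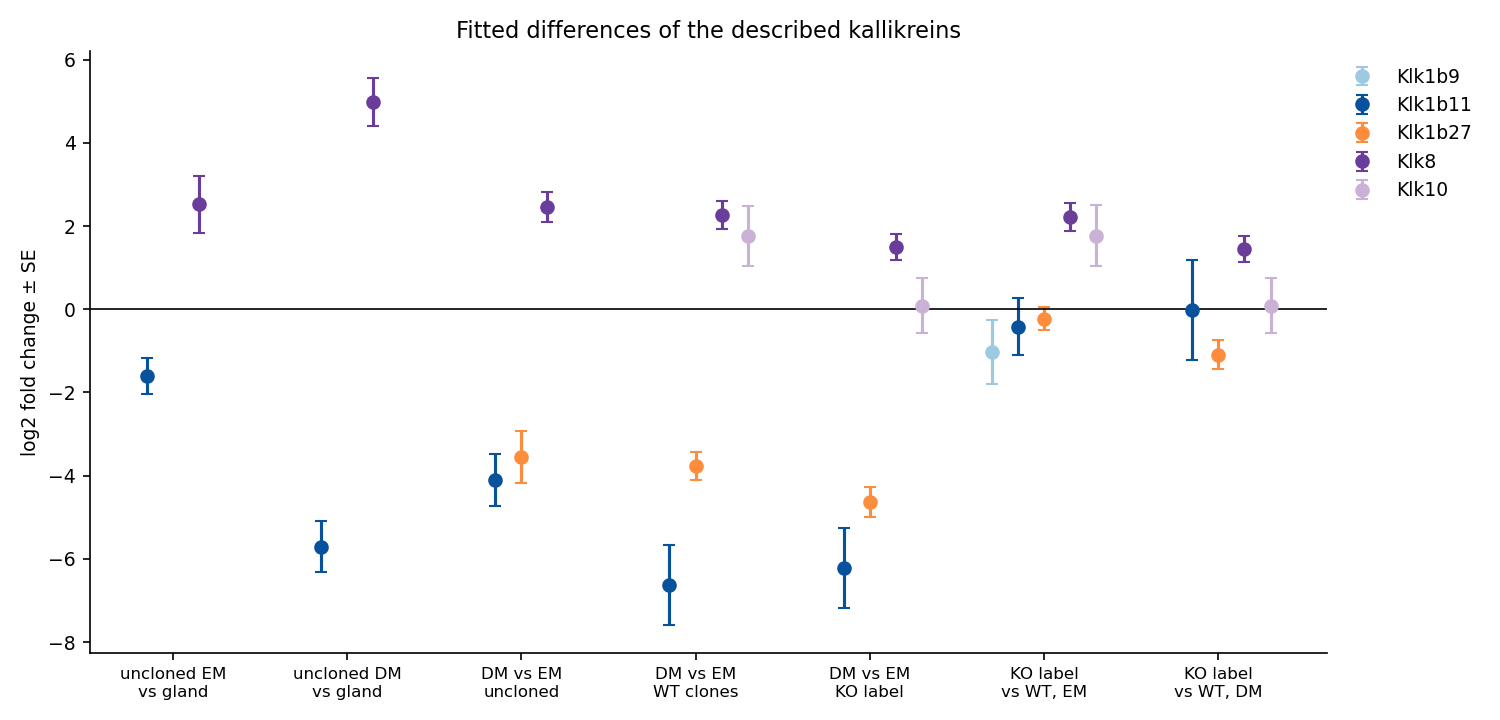
Log2 fold change with its standard error from the fit to all genes of a table, for each described gene with more than 3 counts in both groups compared, described without a test. The Klk1b genes lie below 0 in all DM against EM comparisons, down to -6.63 for Klk1b11 in WT clones, and Klk8 lies above 0 in every comparison shown, from 1.44 to 4.98.

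The background for these non-overlapping groups was wide. Of all tested genes, 40.1% lay higher and 39.2% lower without overlap in uncloned EM against the gland, and 39.1% and 38.0% in uncloned DM against the gland. For DM against EM the shares were 24.2% higher and 23.3% lower in uncloned organoids, 29.3% and 29.3% in WT clones, and 28.6% and 29.5% in labelled KO clones. For labelled KO against WT they were 31.1% higher and 30.4% lower in EM, and 26.3% and 26.3% in DM. With 2 libraries a group, an absence of overlap is thus common, and nothing is read from it for genes that were picked with their values known.

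The 20 other family genes were few in counts outside the clones. In the first table all 20 fell below the filter on low counts, so none of them was among the 13713 genes tested there, by edgeR's quasi-likelihood test with Benjamini-Hochberg adjustment or by DESeq2. The most abundant of them was Klk1b8, chosen after its values were seen, with 0 counts in the gland, 21 in uncloned EM and 1 in uncloned DM. Among the clones 11 passed, 8 of the 10 other Klk1b genes, through their EM libraries, and 3 outside Klk1b, namely Klk7, Klk9 and Klk13.

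In WT clones 6 of the 8 Klk1b genes tested fell from EM to DM and none rose. Across all 14282 genes 6.13% fell and 9.61% rose. Klk1b1 went from 66 counts over both EM libraries to 0 (at least 19.8-fold lower, edgeR adjusted p = 0.0149). Klk1b3 went from 194 to 0 (58.3-fold lower at the floor, lower limit 46.9, adjusted p = 0.0416). Klk1b5 went from 155 to 0 (46.6-fold lower at the floor, lower limit 37.4, adjusted p = 0.0329). Klk1b24 went from 57 to 0 (at least 17.1-fold lower, adjusted p = 0.0413). Klk1b8 went from 128 to 2 (57.7-fold lower, interval 15.6 to 481, adjusted p = 0.0183), and Klk1b26, a further binding protein of epidermal growth factor, from 221 to 2 (99.6-fold lower, interval 27.2 to 827, adjusted p = 0.0266). These genes are counted as passing through EM, where they were high, so the share of them that fell is no support in itself.

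The number of calls depended on single libraries. It was 0 without WT clone 1 in EM, 1 without WT clone 1 in DM, 1 without WT clone 2 in DM and 5 without WT clone 2 in EM, and 2 with only the WT libraries in the fit. The clone as a block gave 8 falls and DESeq2 gave 7.

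In clones labelled Pax6-KO, 2 of the 8 fell from EM to DM, against 3.41% lower and 4.94% higher of all genes. The 8 are close copies that passed the filter through EM, where they were high, so this share is no support in itself. The calls were Klk1b1, from 39 counts to 0 (at least 12.8-fold lower, edgeR adjusted p = 0.0318), and Klk1b26, from 209 to 0 (at least 68.5-fold lower, adjusted p = 0.0311). Neither passed with any 1 of the 4 labelled KO libraries left out (adjusted p up to 0.133), while the clone as a block gave 6 falls and DESeq2 gave 6. Klk1b3 had 99 counts in EM and 0 in DM (adjusted p = 0.0758). The test of the difference between labels, the medium by label interaction, called 0 of the 11 genes with edgeR and 0 by DESeq2. At an unadjusted p under 0.05 there were 0, and edgeR called 0.00% of all genes. Klk1b1, Klk1b3, Klk1b5, Klk1b16 and Klk1b24 had 0 counts in DM under both labels, so this test could not call them.

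The kallikreins outside Klk1b stood at low levels and none was called by edgeR. Of these, Klk7, Klk9 and Klk13, named after their values were seen, had higher means in DM than in EM under both labels. Klk7 passed the filter on low counts through DM, where it was high, so its direction is no support in itself. Klk7, which cuts the adhesion proteins of the cornified layer, had 1 count in WT EM and 11 in WT DM (adjusted p = 0.0787), and 2 and 22 in labelled KO EM and DM (adjusted p = 0.0674). Klk9, the neighbour of Klk8, had 12 counts in labelled KO EM and 53 in labelled KO DM (2.15 ± 0.78, adjusted p = 0.146). It had 10 and 20 in WT EM and DM (edgeR adjusted p = 0.421). For Klk13 the edgeR adjusted p was 0.262 in WT and 0.756 in labelled KO clones. Between labels, edgeR called 0 of the 11 in EM and 0 in DM, with 0 at an unadjusted p under 0.05 and 0 by DESeq2 in either medium. In DM, Klk1b1, Klk1b3, Klk1b5, Klk1b16 and Klk1b24 had 0 counts under both labels and could not be called. Klk1b21 and Klk1b26 had only 1 and 2 counts there, all in WT clones.

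**Figure D4:**
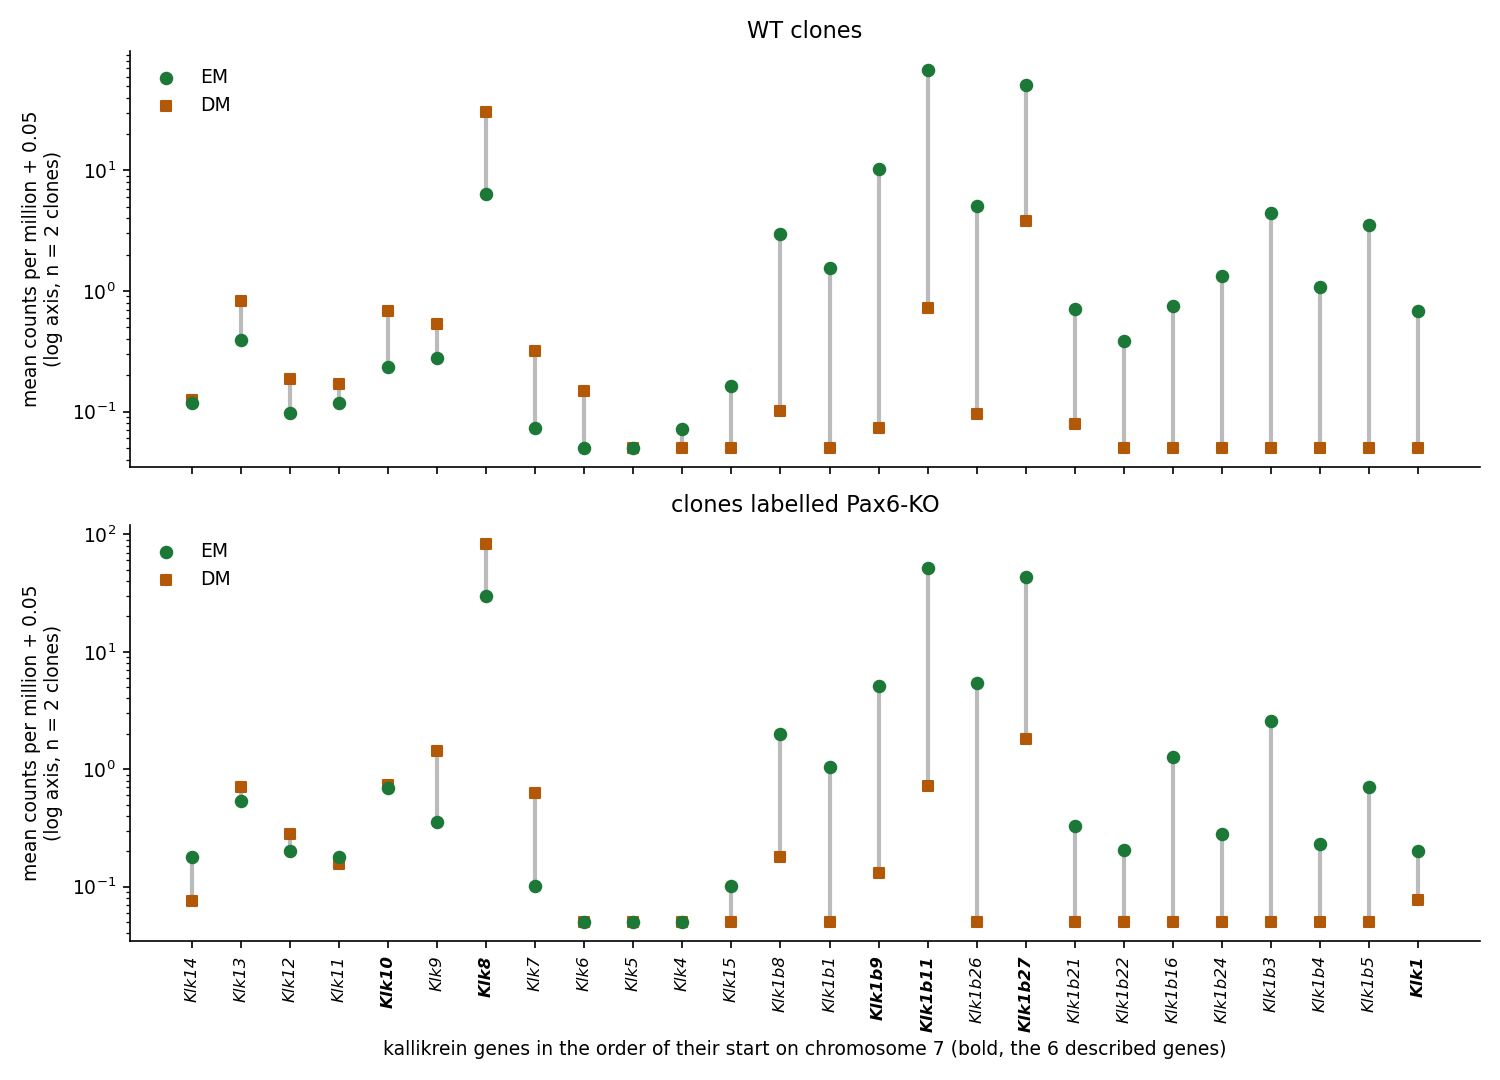
Mean CPM plus 0.05 (log axis, 2 clones a group) of the 26 family genes in the order of their starts on chromosome 7, in EM (circles) and DM (squares), for WT clones above and labelled KO clones below. All 13 Klk1b genes have higher means in EM than in DM, while Klk8 goes from 6.37 to 30.5 CPM in WT clones and from 29.6 to 83.2 CPM in labelled KO clones.

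Inhibitors of kallikreins and of the membrane proteases that activate them were mostly higher in organoids than in the gland. Of 9 inhibitors, 7 were tested, and 5 rose and 2 fell in uncloned EM, where 37.4% of all genes rose and 37.4% fell. Among the rises, 1 did not pass without gland 6 (edgeR adjusted p = 0.0574), gland 8 (0.156) or EM of line 7 (0.069). Serpinb5 (maspin) went from 1.90 ± 1.06 to 69.5 ± 6.07 CPM (5.22 ± 0.24, edgeR adjusted p = 6.32e-09), and Slpi, a secreted inhibitor of serine proteases, from 0.102 ± 0.0917 to 37.6 ± 10.8 CPM (8.38 ± 0.46, adjusted p = 2.31e-08). Spink5, which blocks epidermal kallikreins, went from 0.121 ± 0.211 to 14.7 ± 2.44 CPM (7.02 ± 0.97, adjusted p = 4.63e-05). Serping1, the inhibitor of plasma kallikrein and complement, fell from 41.0 ± 5.67 to 0.0138 ± 0.0239 CPM (-11.00 ± 0.36, adjusted p = 4.50e-10). The median log2 fold change was 1.56 over the 7 and 0.01 over all genes. In uncloned DM against the gland 5 rose and 2 fell again, where 38.1% of all genes rose and 37.4% fell, and both comparisons share the gland libraries. Spint2, a relative of Spint1, fell against the gland in EM (-0.31 ± 0.08, adjusted p = 0.00433) but rose with total-count scaling (1.75).

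From EM to DM in uncloned organoids 3 of the 7 inhibitors rose and 2 fell, against 17.2% and 13.2% of all genes. Serpina3n rose from 1.73 ± 0.689 to 32.7 ± 8.66 CPM (4.22 ± 0.30, adjusted p = 6.78e-06) and Serpinb5 from 69.5 ± 6.07 to 185 ± 29.8 CPM (1.41 ± 0.15, adjusted p = 7.13e-05). Spint1, which blocks matriptase, rose from 132 ± 9.43 to 189 ± 22.5 CPM (0.51 ± 0.10, adjusted p = 0.00315). Slpi fell from 37.6 ± 10.8 to 23.5 ± 3.06 CPM (-0.68 ± 0.19, adjusted p = 0.0186), and did not pass without EM of line 6 (adjusted p = 0.0859), DM of line 6 (0.0703) or DM of line 7 (0.0607). Spint2 fell from 330 ± 14.4 to 277 ± 17.4 CPM (-0.25 ± 0.08, adjusted p = 0.0348), and passed only without DM of line 8 (adjusted p 0.0716 to 0.148 otherwise). With line 6 left out of either medium, or line 7 out of DM, neither fall passed, which leaves 0. In the clones 6 inhibitors were tested. Serpinb5 rose in WT (0.68 ± 0.17, adjusted p = 0.0379) and in labelled KO clones (1.19 ± 0.17, adjusted p = 0.0124), and Slpi fell in WT clones (-0.91 ± 0.21, adjusted p = 0.0308). In WT clones, Serpinb5 passed only without WT clone 1 in EM and Slpi only without WT clone 2 in DM, while in labelled KO clones Serpinb5 passed only without labelled KO clone 1 in DM. With the clone as a block, Spink5 also fell in WT clones (-2.37, adjusted p = 0.0182) and Serpina3n also rose in labelled KO clones (4.42, adjusted p = 0.0158). Between labels Slpi was the 1 call by edgeR, higher in labelled KO than in WT clones in DM at 16.9 ± 1.22 against 8.26 ± 1.85 CPM (1.03 ± 0.21, adjusted p = 0.0424), and it passed only without WT clone 2 (up to 0.156 otherwise). DESeq2 called 1 inhibitor higher and 2 lower in labelled KO clones in DM, and 1 lower in EM, where edgeR called 0 and 1 had an unadjusted p under 0.05.

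Among the genes of the epidermal protease cascade, St14 encodes matriptase, a membrane protease that activates others, and Prss8 encodes prostasin, its partner. Of 11 listed genes, 4 were tested in uncloned organoids, and from EM to DM 3 rose and 1 fell, against 17.2% and 13.2% of all genes. St14 rose from 309 ± 22.0 to 402 ± 18.9 CPM (0.38 ± 0.09, adjusted p = 0.00688). The call that fell was Prss8 (-0.23 ± 0.08, adjusted p = 0.0474), and it was lost without any 1 of the 3 EM libraries or DM of line 7 or 8 (adjusted p up to 0.172), and with the line as a block (0.0685). The protease-activated receptor F2rl1 rose from 108 ± 16.8 to 157 ± 26.6 CPM (0.54 ± 0.15, adjusted p = 0.0188), but not with line 6 or 7 left out of either medium (adjusted p up to 0.0846). The thrombin receptor F2r rose from 17.7 ± 1.49 to 25.7 ± 2.79 CPM (0.54 ± 0.15, adjusted p = 0.0169), but not with line 6 (0.0640) or line 7 (0.0779) left out of EM, or line 7 out of DM (0.0520). In each of those 3 cases St14 was the 1 rise left. St14 also rose in WT clones, from 563 ± 37.2 to 1186 ± 109 CPM (1.08 ± 0.14, n = 2 and 2, edgeR adjusted p = 0.00542), the 1 call among 5 tested, where 9.61% of all genes rose and 6.13% fell. With the clone as a block F2r rose there as well (0.65, adjusted p = 0.0393). None of the 5 was called in labelled KO clones by edgeR or DESeq2, with 0 at an unadjusted p under 0.05. St14 stood at 1079 ± 47.6 CPM in labelled KO EM, above WT EM (0.94 ± 0.14, adjusted p = 0.0125), and that call was lost with any 1 of the 4 EM libraries left out (adjusted p up to 0.0904). The difference of the medium effect between labels passed for 0 of the 5 with edgeR, 1 at an unadjusted p under 0.05 and 1 by DESeq2.

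Prss8 was lower in labelled KO than in WT clones in both media. It stood at 57.3 ± 5.23 against 117 ± 10.99 CPM in EM (-1.03 ± 0.19, adjusted p = 0.0227) and at 49.0 ± 14.04 against 121 ± 6.61 CPM in DM (-1.30 ± 0.19, adjusted p = 0.0223). All genes were called higher at 5.38% and lower at 4.41% in EM, and at 2.39% and 3.08% in DM. The EM call was lost with any 1 EM library left out (adjusted p up to 0.147), and the DM call without WT clone 1 (0.0571) or labelled KO clone 1 (0.0937).

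Substrates cut by Klk8 and growth factors bound or processed by kallikreins were listed together, with 7 genes reported. From EM to DM 2 of 7 rose and 1 fell in uncloned organoids, against 17.2% and 13.2% of all genes. Of 6 tested in the clones, 2 rose and 0 fell in WT, against 9.61% and 6.13%, and 2 rose and 0 fell in labelled KO clones, against 4.94% and 3.41%. With the clone as a block L1cam, an adhesion protein cut by Klk8, fell in WT clones (-0.62, adjusted p = 0.0379, against 0.0956 without the block). Ephb2, a receptor cut by Klk8, rose from 7.22 ± 1.41 to 30.8 ± 3.38 CPM in uncloned organoids (2.09 ± 0.19, adjusted p = 2.80e-05), by 1.09 ± 0.24 in WT clones (adjusted p = 0.0251) and by 1.05 ± 0.24 in labelled KO clones (adjusted p = 0.0427). Fn1, the matrix protein fibronectin, rose from 235 ± 49.9 to 878 ± 201 CPM in uncloned organoids (adjusted p = 3.36e-05), by 3.86 ± 0.45 in WT clones (adjusted p = 0.00381) and by 3.40 ± 0.44 in labelled KO clones (adjusted p = 0.00980). Ntf3, neurotrophin 3, fell in uncloned organoids (-1.63 ± 0.51, adjusted p = 0.0316), but the call was lost when line 7 was left out of either medium, line 8 out of EM or line 6 out of DM (up to 0.115). Ephb2 did not pass in WT clones without WT clone 1 in EM (0.129) or WT clone 2 in DM (0.0790), nor in labelled KO clones without any 1 library (up to 0.228). Against the gland, 5 of the 7 rose and 1 fell in uncloned EM, where 37.4% of all genes rose and 37.4% fell, with a median log2 fold change of 2.12 against 0.01 over all genes. Those that rose were Ephb2 (3.28 ± 0.35, adjusted p = 5.34e-06), Fn1 (3.45 ± 0.21, adjusted p = 4.55e-08), L1cam (2.12 ± 0.22, adjusted p = 4.80e-06), the growth factor Nrg1 (2.12 ± 0.20, adjusted p = 2.47e-06) and the neurotrophin Bdnf, from 0 to 0.400 ± 0.0869 CPM (adjusted p = 0.00290). Egf, the growth factor the Klk1b binding proteins are named for, fell from 156 ± 13.997 CPM in the gland to 0.142 ± 0.0699 CPM in uncloned EM (-10.00 ± 0.25, adjusted p = 8.21e-11).

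Ntf3 was also lower in labelled KO than in WT clones. It stood at 0.485 ± 0.243 against 6.13 ± 1.54 CPM in EM (-3.64 ± 0.45, adjusted p = 0.00800) and at 0.445 ± 0.122 against 3.92 ± 0.173 CPM in DM (-3.12 ± 0.45, adjusted p = 0.0223). The EM call was lost without labelled KO clone 2 (0.0565), and the DM call without WT clone 1 (0.0537), labelled KO clone 1 (0.135) or labelled KO clone 2 (0.0767). L1cam was lower in EM (-1.02 ± 0.22, adjusted p = 0.0314), and lost its call without WT clone 1, WT clone 2 or labelled KO clone 1 (up to 0.128).

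**Figure D5:**
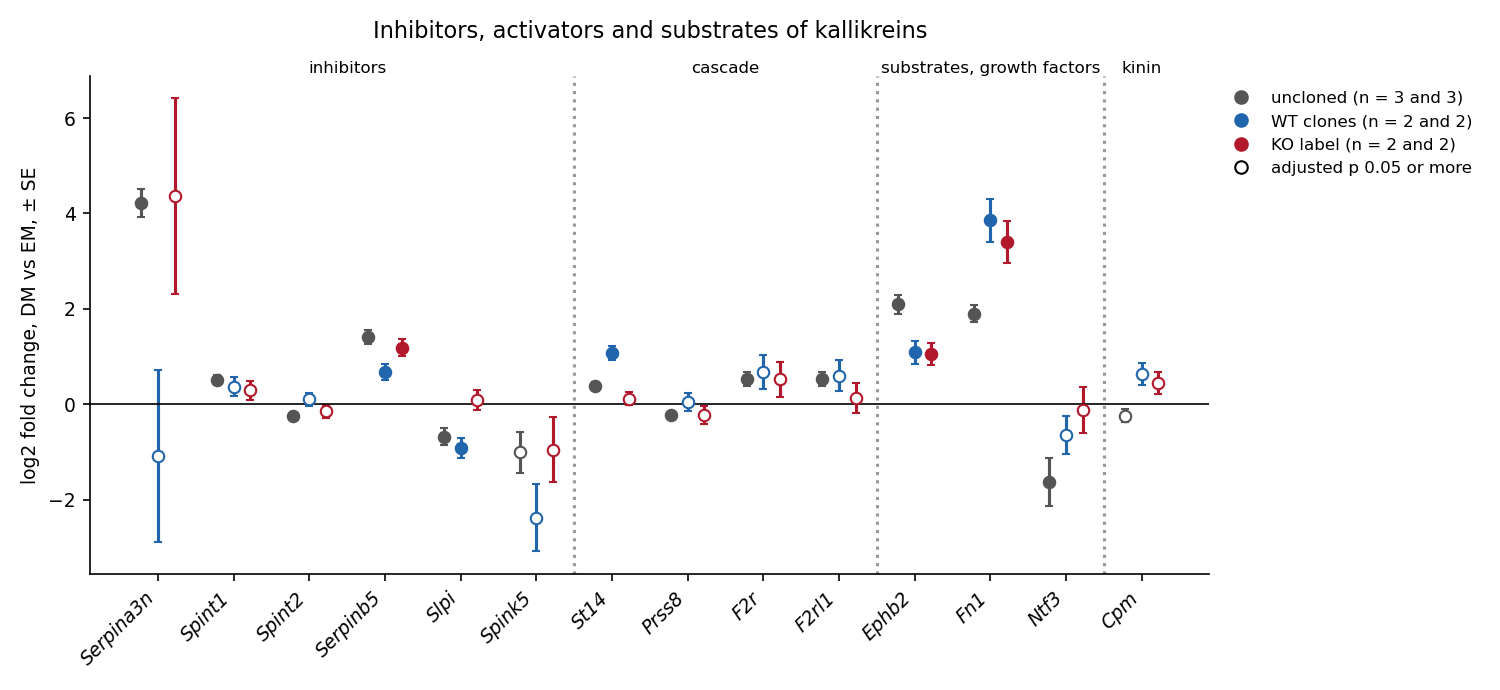
Log2 fold change of DM against EM with its standard error for 14 genes that act with kallikreins, by organoid kind, with filled points for edgeR adjusted p below 0.05. Serpinb5, Ephb2 and Fn1 are filled in all 3 settings, at 1.41, 2.09 and 1.90 in uncloned organoids.

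Of the kinin system few genes could be tested, 3 of 9 in the first table and 1 in the clones. Against the gland, the kinin-degrading enzymes Ace (-4.84 ± 0.23, adjusted p = 6.47e-09) and Mme (-6.45 ± 0.52, adjusted p = 5.32e-07) fell in uncloned EM, and Cpm, a carboxypeptidase that trims kinins, rose (2.59 ± 0.16, adjusted p = 5.19e-08). None of the 3 was called between uncloned DM and EM by edgeR or DESeq2, with 1 at an unadjusted p under 0.05. With the clone as a block Cpm rose from EM to DM in WT clones (0.64, adjusted p = 0.0494, against 0.106 without it). Cpm was lower in labelled KO than in WT clones, at 35.6 ± 7.79 against 128 ± 25.4 CPM in EM (-1.85 ± 0.24, adjusted p = 0.00833) and 48.6 ± 11.3 against 199 ± 24.03 CPM in DM (-2.04 ± 0.24, adjusted p = 0.0147). The EM call was lost without labelled KO clone 2 (0.0614) and the DM call without labelled KO clone 1 (0.100).

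Markers of other cell types moved with some of these levels. Fibroblast markers summed to 622 to 738 CPM in the gland and to at most 0.538 CPM in uncloned organoids. Endothelial markers summed to 33.0 to 50.7 CPM in the gland against at most 1.62 CPM. Macrophage and dendritic markers summed to 171 to 235 CPM in the gland against 13.9 to 23.0 CPM. The part of these cells in the gland levels of Serping1, Ace and Mme was not tested. The 6 stratified keratinocyte markers summed to 4.79 to 8.75 CPM in the gland, with Krt1 and Ivl at 0, to 253 to 348 CPM in uncloned EM and to 700 to 1029 CPM in uncloned DM. They summed to 522 to 583 and 1053 to 1264 CPM in WT EM and DM, and to 675 to 824 and 871 to 1332 CPM in labelled KO EM and DM, with none of the 6 at 0 in any organoid group. The sums in organoids were mostly Krt6a, a keratin of activated keratinocytes, at 209 to 279 CPM in uncloned EM and 656 to 986 CPM in uncloned DM. Sbsn went the other way, at 39.7 to 70.8 CPM in EM and 26.8 to 39.0 CPM in DM, and Krt1 and Lor stayed under 1 CPM in all uncloned libraries. The sums were higher in DM than in EM, as Klk8 was, and their part in it was not tested. The 9 salivary gland markers were all at 0 in the gland, in which Klk1b11 was found, and summed to 0.585 to 0.913 CPM in uncloned EM, with 6 of 9 at 0. They summed to 0.188 to 0.268 CPM in WT EM and to 0.606 and 6.31 CPM in labelled KO EM, and to at most 0.372 CPM in any DM library. Smgc, Smr2, Smr3a and Bpifa2 had no counts in any library, and the part of salivary-type cells in the Klk1b levels was not tested. The 4 Y-linked transcripts listed had no counts in the gland or uncloned organoids and at most 1 count in any clone library.

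The genes with patterns most like those of the 6 were named by Pearson's r of log2(CPM + 0.5) over the libraries of a table, as a description. These libraries share their groups, so r mostly follows differences between groups. Over the 9 libraries of the first table the nearest genes to Klk8 were Pitpnm3 (0.989), Rnf24 (0.988) and Mvp (0.987). Those nearest to Klk1b27 were Pigz (0.981), Nts (0.976) and Olfm5 (0.976), and those nearest to Klk1b11 were Cyhr1 (0.992), Slc27a2 (0.991) and Spint2 (0.987). Pigz went from 1.11 CPM in the gland to 13.997 in uncloned EM and 1.55 in uncloned DM. Over the 8 clone libraries Klk8 was nearest to Zc3h4 (0.992), Foxp1 (0.989) and Zscan2 (0.987), and Klk1b27 to Rab17 (0.985), Cdkn2c (0.984) and Etnk1 (0.982). Klk1b9 was nearest to Klk1b1 (0.996) and Klk1b11 to Klk1b1 (0.994), close copies that may share reads. Zc3h4 ranged only from 76.2 to 109 CPM over the group means, so a high r does not mean a like size of difference.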

How the data were processed

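Polyadenylated RNA was measured in 17 libraries. Libraries were stranded, per the labels' protocols. STAR, featureCounts and the build GRCm38 are named in the submitters' processing notes, while the sources used here give no versions, strand setting, annotation release or handling of multi-mapped reads. The deposited values are whole, unnormalised counts per gene. IDs matched a symbol for 36345 of 38293 in the first table and 55141 of 55487 in the second, and all value columns were used.

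Each table was fitted alone on its counts with edgeR 4.0.16 (quasi-likelihood, TMM scaling, filterByExpr, 1 mean per group, R 4.3.3), and genes with an adjusted p under 0.05 over 13713 or 14282 genes were called. The 6 genes and all lists were chosen with earlier results of these data known. By rule the 6 genes were followed in every comparison, and genes called from the lists could be named, up to the 6 with the smallest p in a list and comparison. Klk1 had too few counts for the medium by label fit, and that fit is not given for Klk1b9, which had 3 counts or fewer in DM. Folds against a group at 0 use a floor of 3 counts over that group and leave out error in the other group. They are thus not lower limits. The 95% intervals and lower limits cover counting error only. The alternatives were total-count scaling, DESeq2 1.42.0, its size factors in edgeR, no filter and all Klk1b genes in the sum. Only the groups compared, each library left out and a block on line or clone were further alternatives. Simulated data were used to test the main edgeR fit alone, for DM against EM in uncloned organoids and in WT clones. With total-count scaling the median of all genes moved by 2.06 (EM) and 1.99 (DM) against the gland.

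The pairing comes from the labels, which number the line across gland and media and the clone across media. For lines 6, 7 and 8 the EM and DM deviations from their group means had r of 0.18, 0.12 and 0.09, of -0.07 to 0.08 between gland and organoids, and of 0.60 (WT) and 0.51 (labelled KO) between the media of a clone. Coding and promoter sequences were compared with Biopython 1.88. One listed gene is not reported here, and the counts of its list leave it out.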

Additional observations from a re-analysis of the deposited data

How the results depend on the processing

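Of 369 values of the 6 genes under an alternative, 302 moved by less than the spread between replicates and 66 moved by more. The 1 counted as reversed was Klk1b11 in uncloned EM against the gland with total-count scaling (0.45). Other differences also crossed 0 with a library left out. Klk1b11 between labels in EM ran from -1.89 to 0.43 (log2), and Klk10 between media in labelled KO clones from -0.34 to 0.69. The Klk1b sum moved with total-count scaling to 2.14 in uncloned EM and -1.74 in uncloned DM against the gland (log2). With each library left out it ran from -0.17 to 0.22 for uncloned EM against the gland, -5.23 to -4.39 for DM against EM in WT clones, -5.88 to -4.38 in labelled KO clones, and -1.32 to 0.19 for labelled KO against WT in EM. Calls among the 20 other kallikreins were 1 in each comparison of the first table with no filter (Klk1b8 in 2 and Klk14 in 1, chosen after their values were seen), and in labelled KO clones between the media 9 with no filter, 4 with only the groups compared, 6 with DESeq2 and 6 with the replicate block. In WT clones they were 2 with only the groups compared. Left-out libraries gave 0 to 5 calls in WT clones and 0 to 0 in labelled KO clones. Labelled KO against WT in EM gave 2 calls with no filter and 1 with the replicate block, where the clones share only a number (r of 0.01). The cause was not tested. The block changed no other count of calls among them by more than 1.5 times. Depth limits Klk1 and Klk10, which rest on 28 counts or fewer in any group.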

Other observations

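Pseudogenes of the locus, which only the clone table lists, carried a few counts beside the Klk1b genes. Klk1b14-ps had 108 counts over the 2 WT clones in EM (2.44 CPM) and 7 in DM, and 39 and 2 in clones labelled Pax6-KO. Klk1b7-ps had 15 and 0 in WT EM and DM and 11 and 0 in labelled KO EM and DM, Klk1b15-ps had 8 in WT EM and none in the other groups, and Klk2-ps had 5 in WT EM and 2 in labelled KO EM. These genes were picked after their values were seen and were not tested. The salivary-type transcript Dcpp3 was uneven between the labelled KO clones in EM, with 7 counts in clone 1 and 95 in clone 2, while the Klk1b sum of clone 2 was the lower of the pair, at 52.1 against 148 CPM.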
